A study of Mus musculus with 6 samples.

Results

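The Vps10-domain sorting receptors of the mouse are the 5 genes Sorcs1, Sorcs2, Sorcs3, Sort1 and Sorl1, and they were followed here in RNA-seq of the lacrimal gland bud with and without the Pea3 family of transcription factors. They were picked by gene symbol from the 23420 genes listed, and all 5 were among the 13087 genes with enough reads to be tested. Sorcs1 drew attention through its decrease in these same samples, so its values are given as a description with no test, whereas the other 4 genes came in as its relatives. Lacrimal gland epithelium was taken by laser capture from mouse embryos of E14.5 on a mixed background, in 3 control and 3 Pea3 TKO samples. The paper gives the sequenced controls as Le-Cre, although their sample titles call them WT. Its methods also name Le-Cre mice heterozygous for the Pea3, Erm and Er81 alleles as controls. Pea3 TKO samples carried Le-Cre together with Pea3-/-, Ermfl/fl and Er81fl/fl. Pea3 (Etv4) is thus null throughout the embryo, while Erm (Etv5) and Er81 (Etv1) are removed only where Le-Cre acts, in the ectoderm of the ocular surface and its derivatives. Both groups carry Le-Cre, so neither shows the bud without the transgene. The labels do not say whether the samples of a group came from different embryos, so the p-values measure the spread between these samples, which may be technical.

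Vps10-domain receptors are single-pass membrane proteins that share the domain first described in the vacuolar sorting receptor of yeast. They bind cargo in the trans-Golgi network or at the cell surface and carry it between Golgi, endosomes, lysosomes and plasma membrane. Their propeptides are cut off by furin-type convertases, and their cytoplasmic tails are read by adaptor proteins and by retromer. Sortilin (Sort1) binds progranulin and neurotrophin precursors, SorLA (Sorl1) binds the amyloid precursor protein, and the 3 SorCS proteins are best known from neurons.

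Each library held between 14194775 and 17860140 counts, and 3 counts corresponded to 0.169 to 0.21 CPM (counts scaled to a library of 1000000). Levels below are CPM after TMM normalization (trimmed mean of M values) and are counts per gene, so that a partly deleted gene can still be counted. The targeted genes were lower in every Pea3 TKO library. Etv5 was at 961 to 1202 CPM in control and 88.2 to 177 CPM in Pea3 TKO, Etv4 at 129 to 184 against 10.9 to 28.4 CPM, and Etv1 at 28.7 to 33.9 against 9.21 to 9.98 CPM (edgeR quasi-likelihood test, adjusted p at most 0.000429). The epithelial genes Epcam, Cdh1 and Pax6 were present in all 6 libraries, Epcam at 1201 to 1500 CPM. Of the cell type markers, 9 of 10 tested for gland epithelium and 11 of 12 for epidermis and conjunctiva were called higher in Pea3 TKO, against 13.6% of all tested genes. For periocular mesenchyme the count was 2 of 13, Dcn and Lum, which is near that share. Yet 12 of the 13 had a log2 fold change above 0, with a median of 2.31. Dcn was at 69.7 and 73.6 CPM in Pea3 TKO replicates 1 and 2. In replicate 3 it was at 2.41 CPM, within the control range of 0.249 to 4.42 CPM. Of 5 Schwann cell markers, 1, Erbb3, was called lower, against 11.3% of all tested genes. The adjusted p was at least 0.0571 for each of 3 neuronal, 1 endothelial and 6 blood markers tested, and Prph, Cdh19, Emcn, Hba-a1 and Hba-a2 were at 0. Blood RNA was nevertheless present in every library. The globin gene Hbb-y was at 28.3 to 88.05 CPM in control and 44.6 to 204 CPM in Pea3 TKO. Hba-x was at 4.62 to 18.3 and 4.255 to 16.3 CPM. Sex-linked expression was unevenly spread over the groups. The summed CPM of 4 Y-linked genes was 136 to 175 in the 3 controls and 139 in Pea3 TKO replicate 3, but 0.444 and 0.21 in Pea3 TKO replicates 1 and 2, which held Xist at 106 and 32.5 CPM. For the receptors and the genes given with an adjusted p, a call or direction that changed when only Y-expressing libraries were compared is given below. That comparison has 1 Pea3 TKO library. A call lost in it therefore cannot tell an effect of sex from the smaller number of samples.

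Sorcs1, a receptor known for regulating the trafficking of neurexin and of the amyloid precursor protein in neurons, was nearly absent from the Pea3 TKO libraries. It was counted 118, 378 and 398 times in control replicates 1 to 3, and 0, 1 and 1 times in Pea3 TKO replicates 1 to 3. All 3 Pea3 TKO libraries were thus under the 3-count floor, and all 3 controls were far above it. In CPM these were 6.65, 23.6 and 25.9 in control, a mean of 18.7 ± 10.5 (SD, n = 3), against 0, 0.0699 and 0.0587, a mean of 0.0429 ± 0.0376 (SD, n = 3). Control replicate 1 stood apart from the other controls, and the highest control was 3.89 times the lowest. Summed over each group, 894 counts stood against 2, a depth-corrected ratio of 428 with a 95% interval of 118 to 3540 that covers counting error only. The fitted log2 fold change was −8.54 (SE 0.82), a value that depends on the fit because the Pea3 TKO counts are so few. It ranked 9 from the bottom among the 13087 genes tested, and 11.3% of them were called lower, but Sorcs1 was chosen by this contrast and nothing is read from its rank. The Y-expressing Pea3 TKO library had 1 count, so the near-absence was also seen in the library that matched the controls in sex-linked expression. In a bulk sample, fewer cells that express the gene and less RNA per cell cannot be told apart. Control replicate 1, with the least Sorcs1 of the controls, also had the highest summed CPM of epidermis and conjunctiva markers, 1650 against 614 and 557 in control replicates 2 and 3, and that sum was 5479 to 7775 in Pea3 TKO. Schwann cell markers summed to 244 to 348 CPM in control and 121 to 153 CPM in Pea3 TKO. The part of either marker list in the level of Sorcs1 was not tested.

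Sorcs1 (ENSMUSG00000043531.16) lies on the minus strand of chr19:50143299-50678646 in GRCm38, with 27 exons in its longest transcript, and its union of exons spans 8441 bases. No listed gene overlaps it. The nearest listed gene towards lower coordinates is its relative Sorcs3, 1338 kb away, followed by Ccdc147. Towards higher coordinates the nearest are Ins1, at 1585 kb, and AA387883. Ccdc147, Ins1 and AA387883 had 0 counts in all 6 libraries, so only Sorcs3 gave a value to set beside Sorcs1, and its counts were 10, 14 and 49 in control and 75, 51 and 48 in Pea3 TKO. The pair of neighbouring relatives thus differed in direction of their fitted values, although the change in Sorcs3 did not pass the test. Both genes are on chromosome 19, and Sorcs2, Sort1 and Sorl1 are on chromosomes 5, 3 and 9.

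Because the deleted factors are ETS proteins, which bind DNA around the core GGAA, the 250 bases before the start of each gene are shown where the RefSeq promoter table (GRCm38.p6) held them, 5′ to 3′ on the strand of the gene. Capitals mark GGAA or its reverse complement TTCC. Sorcs1 is from chr19:50678647-50678896 (minus strand), Sorcs3 from chr19:48205775-48206024 (plus strand) and Sorl1 from chr9:42124298-42124547 (minus strand).
Sorcs1: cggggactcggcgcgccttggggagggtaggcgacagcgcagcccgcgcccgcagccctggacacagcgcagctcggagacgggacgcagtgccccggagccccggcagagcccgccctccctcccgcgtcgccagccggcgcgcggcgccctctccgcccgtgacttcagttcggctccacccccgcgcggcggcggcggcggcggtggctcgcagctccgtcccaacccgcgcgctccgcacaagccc
Sorcs3: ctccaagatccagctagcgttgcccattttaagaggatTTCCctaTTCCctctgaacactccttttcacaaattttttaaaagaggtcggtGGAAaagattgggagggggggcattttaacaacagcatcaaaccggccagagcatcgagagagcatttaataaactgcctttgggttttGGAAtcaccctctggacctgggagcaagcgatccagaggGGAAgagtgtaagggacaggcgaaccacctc
Sorl1: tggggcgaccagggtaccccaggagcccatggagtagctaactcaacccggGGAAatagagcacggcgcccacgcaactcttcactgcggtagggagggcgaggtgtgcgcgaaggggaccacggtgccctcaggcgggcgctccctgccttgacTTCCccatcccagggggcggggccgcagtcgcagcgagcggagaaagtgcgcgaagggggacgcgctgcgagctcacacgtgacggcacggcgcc
The Sorcs1 window held no core on either strand. It was rich in G and C, at 79.6% of bases, and held 41 CpG. In the Sorcs3 window there were 5 cores, 3 read as GGAA and 2 as TTCC, and 48.4% of bases were G or C. The Sorl1 window had 2 cores and 69.6% G or C. The table held another window for Sorl1, chr9:42077214-42077463, before a start inside the annotated gene, with 2 cores and 47.2% G or C, and the one shown lies before the outermost start. Among 32851 RefSeq windows of the same length, 93.4% held the core on at least 1 strand, and the median window had 3 cores and 52.4% G or C. Windows without the core were 6.55% of these. That share is over windows of every base composition, and windows as rich in G and C as that of Sorcs1 were not looked at apart. The longer motifs AGGAAG and CCGGAA, searched on both strands and each containing the core, were in none of the 3 windows and in 29.5% and 12% of all windows. These are matches of letters in a short window and say nothing about binding. Sort1 and Sorcs2 are named only.

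Sort1, which sorts progranulin and neurotrophin precursors, was higher in Pea3 TKO. Its level was 66.2, 63.7 and 86.4 CPM in control and 102.6, 105.2 and 110.5 CPM in Pea3 TKO. Every Pea3 TKO library was above every control library, and the Pea3 TKO values lay close together. The means were 72.1 ± 12.4 and 106 ± 4.01 CPM (SD, n = 3), a log2 fold change of 0.56 (SE 0.14, 95% interval 0.24 to 0.88) with an adjusted p of 0.0203 in the edgeR quasi-likelihood test over all tested genes. As a fold, this is 1.47 with an interval of 1.18 to 1.84. Sort1 was the only one of the 4 relatives of Sorcs1 that was called, against 25.0% of all tested genes called in either direction and 13.6% called higher. It was also the only one of the 4 whose groups did not overlap, which was the case for 43.9% of tested genes. A share of 1 in 4 is near this background. The call was lost without control replicate 2 (adjusted p 0.0869), Pea3 TKO replicate 2 (0.0623) or Pea3 TKO replicate 3 (0.0514), and among Y-expressing libraries alone, with a log2 fold change of 0.63 (adjusted p 0.169). The fitted value was above 0 in each of these.

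**Figure D1:**
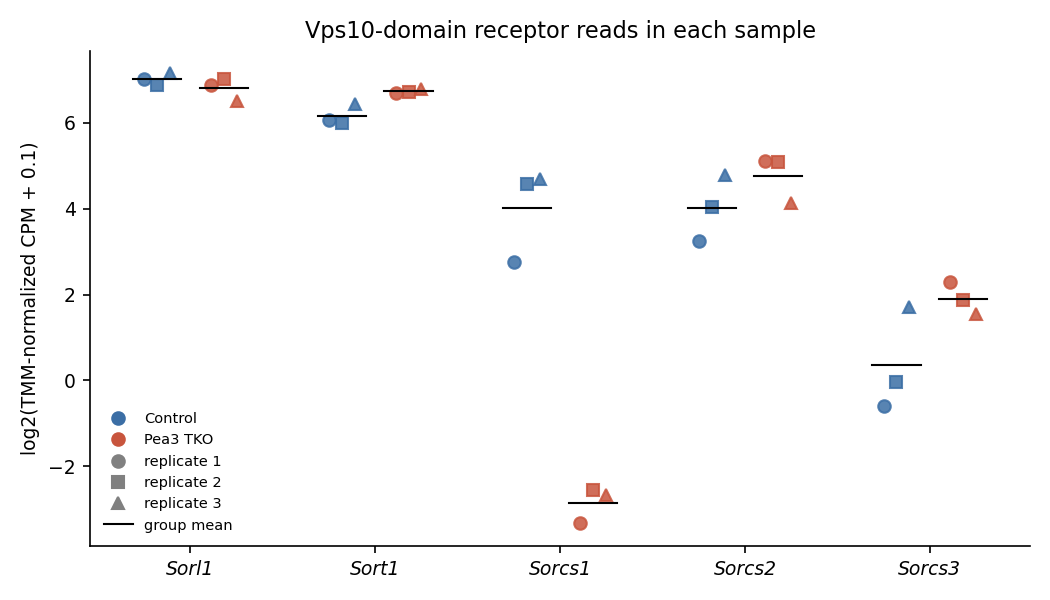
Level of each Vps10-domain receptor in every library, as log2 of TMM-normalized CPM plus 0.1, with control in blue, Pea3 TKO in red, a marker shape for each replicate and a black line at the mean of the 3 plotted values. Sorcs1 falls from 6.65 to 25.9 CPM in control to at most 0.0699 CPM in Pea3 TKO, the Sort1 groups lie apart by a small step, and the groups of Sorl1, Sorcs2 and Sorcs3 overlap.

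Sorl1, the SorLA receptor of the amyloid precursor protein, had the most reads of the family in control. It was at 129, 116.7 and 142 CPM in control and at 118, 129 and 89.9 CPM in Pea3 TKO. The groups overlapped, and the lowest value was that of Pea3 TKO replicate 3. Means of 129 ± 12.6 and 113 ± 20.4 CPM (SD, n = 3) gave a log2 fold change of −0.20 (SE 0.15, 95% interval −0.54 to 0.14, adjusted p 0.376 by edgeR). The fold was 0.871 with an interval of 0.688 to 1.10.

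Sorcs2, a receptor that pairs with the neurotrophin receptor Ngfr in neurons, varied widely within both groups. It was at 9.36, 16.3 and 27.4 CPM in control and at 34.2, 33.7 and 17.3 CPM in Pea3 TKO. The high values of Pea3 TKO were those of replicates 1 and 2, whereas replicate 3 lay within the range of the controls. Its log2 fold change of 0.68 (SE 0.39, 95% interval −0.18 to 1.54) did not pass the test (adjusted p 0.23 by edgeR). Among Y-expressing libraries alone it was −0.0285, so the direction turned. Replicates 1 and 2 of Pea3 TKO were also the ones with Xist and with the highest sums of mesenchyme markers, 782 and 949.7 CPM against 361 in replicate 3 and 328 to 386 in control. The lower sums were mostly Foxc1 and Vim. Foxc1 was at 259 CPM in Pea3 TKO replicate 3 and 184 to 229 CPM in control, and Vim at 87.3 and 84.7 to 90.4 CPM. The mesenchymal collagen Col3a1 was at 2.99, 6.42 and 53.3 CPM in control and 119.5, 213 and 1.997 CPM in Pea3 TKO. Control replicate 3 was the highest control for Sorcs2, for Col3a1 and for the sum of the mesenchyme markers. The markers did not all go this way. Col1a1, Col1a2, Dcn, Lum and Prrx1 were also highest among controls in that library, whereas Pdgfra, Foxc1 and Vim were lowest in it. The part of mesenchyme in the level of Sorcs2 was not tested.

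Sorcs3, a close relative of Sorcs1 that is known from postsynaptic membranes, was the least abundant member in control. It was at 0.564, 0.872 and 3.19 CPM in control and at 4.76, 3.57 and 2.82 CPM in Pea3 TKO. Only control replicate 3 reached the range of Pea3 TKO. Means of 1.54 ± 1.43 and 3.72 ± 0.98 CPM (SD, n = 3) gave a log2 fold change of 1.27 (SE 0.72), but the 95% interval ran from −0.34 to 2.88 and the adjusted p was 0.229 by edgeR. Its counts were 10 to 75 a library.

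**Figure D2:**
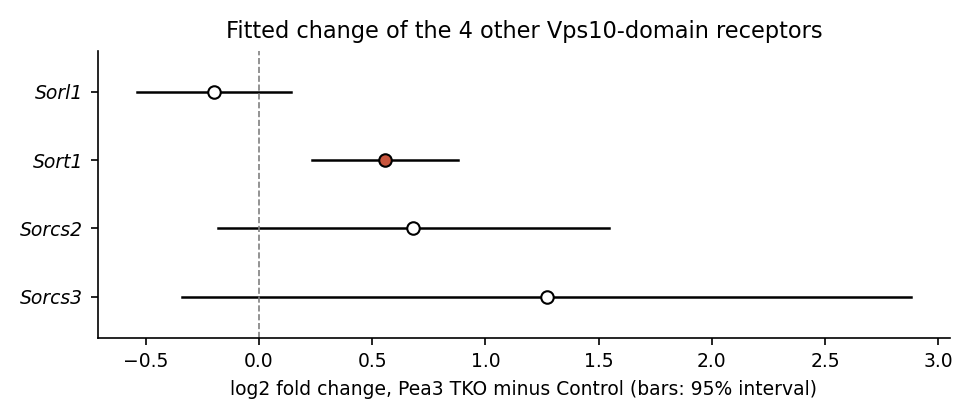
Fitted log2 fold change of Pea3 TKO minus control for the 4 relatives of Sorcs1 (points) with 95% intervals (bars), filled red where the adjusted p was under 0.05. The interval of Sort1, 0.24 to 0.88, lies above 0 and those of Sorl1, Sorcs2 and Sorcs3 include 0, the last being the widest.

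Levels of different genes were compared per kilobase of annotated exon, as CPM per kb. In control the order was Sorl1 at 11.4, Sort1 at 9.53, Sorcs1 at 2.22, Sorcs2 at 2.01 and Sorcs3 at 0.216 CPM per kb. Sorl1 and Sort1 overlapped in their ranges, although Sorl1 was above Sort1 in 3 of 3 controls, and Sorcs1 and Sorcs2 overlapped, with Sorcs1 above in 1 of 3. In Pea3 TKO the order was Sort1 at 14.0, Sorl1 at 9.94, Sorcs2 at 3.22, Sorcs3 at 0.521 and Sorcs1 at 0.00508 CPM per kb, and no neighbours in that order overlapped. Sorcs1 thus went from a place beside Sorcs2 to the last. Among tested genes with a known length, the control mean of Sorl1 was at percentile 61.8, that of Sorcs1 at 28.5 and that of Sorcs3 at 5.76.

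Family reads were also taken as a whole. The 5 genes summed to 22.1, 23.5 and 30.6 CPM per kb in control and to 28.6, 29.7 and 24.9 in Pea3 TKO, so the groups overlapped. Sorcs1 made up 3.57, 11.9 and 10.0% of this sum in control, and 0, 0.0279 and 0.0279% in Pea3 TKO. The share of Sort1 was 39.6, 35.8 and 37.3% in control and 47.5, 46.8 and 58.6% in Pea3 TKO. Sorl1 went the other way, with 51.6, 43.9 and 41.0% in control and 36.6, 38.5 and 31.9% in Pea3 TKO. Shares of 1 sum are tied to each other, so Sort1 and Sorl1 were also set against each other directly. Their ratio per kb was 0.768, 0.816 and 0.91 in control and 1.3, 1.22 and 1.84 in Pea3 TKO. Sorl1 was ahead of Sort1 in every control and behind it in every Pea3 TKO library. The comparison was chosen after its values were seen, and its exact two-sided permutation p of 0.10 is the smallest that 3 against 3 samples can give.

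**Figure D3:**
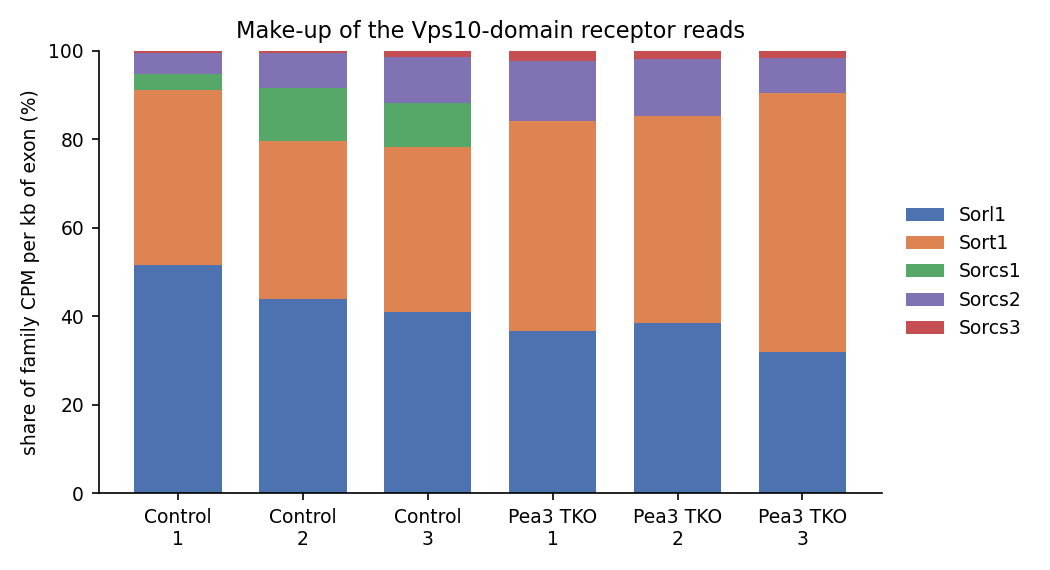
Share of each receptor in the summed CPM per kb of exon of the 5 genes, in percent, with 1 stacked bar for each library. The Sorcs1 segment is 3.57 to 11.9% in control and at most 0.0279% in Pea3 TKO, and Sort1 passes Sorl1 as the largest segment in all 3 Pea3 TKO libraries.

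The genes whose profile over the 6 libraries was nearest to that of Sorcs1 were found by Euclidean distance between log2 CPM profiles, each centred on its own mean. Nearest was Dynlt1b, a dynein light chain gene, at a distance of 0.971, with 9.70, 24.7 and 24.1 CPM in control and 0 in all 3 Pea3 TKO libraries. Dynlt1b has near-identical copies in the genome, so the assignment of its reads is uncertain. Like Sorcs1, it was lowest among controls in replicate 1. The cartilage collagen Col9a1 followed at 1.46, with 707 to 838 CPM in control and 5.72 to 7.41 CPM in Pea3 TKO. Ucma, known from cartilage matrix, was at 2.08, with 3.33 to 6.44 CPM in control and 0 in Pea3 TKO. Next came the collagen Col2a1 at 2.11, with 994 to 1235 CPM against 24.5 to 32.3 CPM, and the transcription factor Sox8 at 2.16, with 2.82 to 8.06 CPM against 0 to 0.21 CPM. These genes were found by their likeness to a profile that was itself chosen for its contrast, and they are given with no test.

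**Figure D4:**
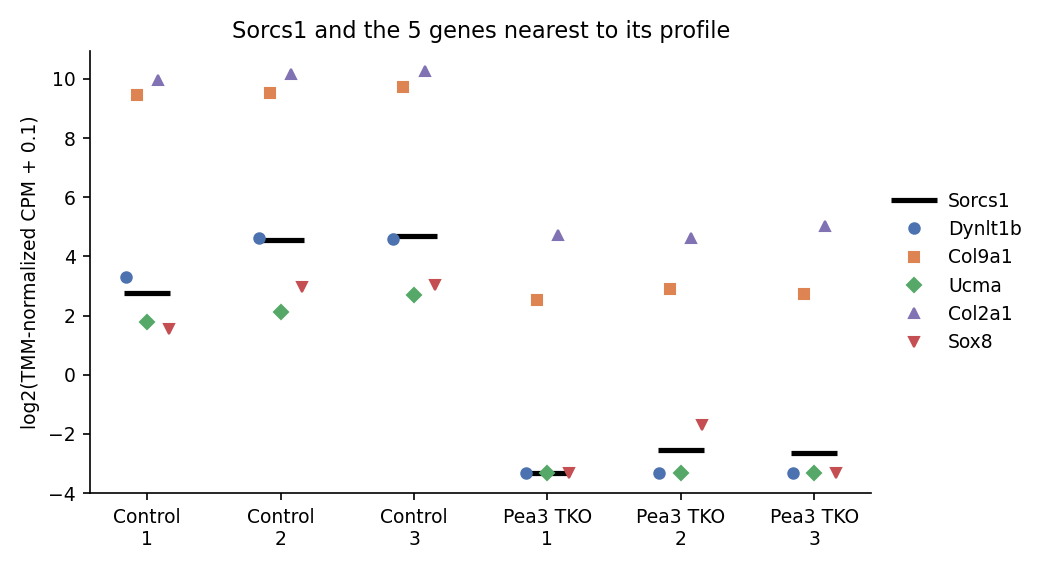
Sorcs1 (black dashes) and the 5 genes nearest to its profile in each library, as log2 of TMM-normalized CPM plus 0.1. All 6 genes are high in the 3 controls and low in the 3 Pea3 TKO libraries, with Col9a1 and Col2a1 at a far higher level than Sorcs1, and each of the 6 is lowest among controls in replicate 1.

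The genes that process, move or bind these receptors were called about as often as genes in general. Across 5 lists 89 genes were tested, of which 16 were called higher and 6 lower, 24.7% in all against 25.0% of all tested genes. Their median log2 fold change was 0.15, beside 0.00936 over all genes. None of the 14 tested genes of retromer and the sorting nexins, which return receptors from endosomes, was called, and their log2 fold changes lay between −0.33 and 0.45 with a median of −0.00251. DESeq2 called 0 of them as well, and 1 had an unadjusted p under 0.05 by edgeR, namely Snx1 (0.37, adjusted p 0.106). The next by p were Rab7 (−0.28, adjusted p 0.15), Tbc1d5 (0.45, adjusted p 0.161) and Snx27 (−0.33, adjusted p 0.204).

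Adaptors and clathrin, which read the receptor tails, had 3 of 25 tested genes higher and 2 lower, against 13.6% and 11.3% of all tested genes. Their median log2 fold change was 0.15. Gga2, an adaptor that binds the tails of sortilin and SorLA, fell from 277 to 301 CPM in control to 141 to 191 CPM in Pea3 TKO (log2 fold change −0.80, adjusted p 0.00247 by edgeR). The AP-1 subunit Ap1g2 rose by 1.13 on the log2 scale (adjusted p 0.00554) and the AP-4 subunit Ap4m1 fell by 0.94 (adjusted p 0.0162). Pacs1, an adaptor for acidic clusters in receptor tails, rose by 0.50 (adjusted p 0.0182). The call of Ap4m1 was lost without control replicate 3, and that of Pacs1 without control replicate 2 or Pea3 TKO replicate 2, with adjusted p of 0.0694, 0.0799 and 0.0754. Among Y-expressing libraries alone, Ap1g2, Ap4m1 and Pacs1 were not called, at log2 fold changes of 1.16, −1.18 and 0.507.

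Convertases, sheddases and gamma-secretase cut the receptors or their propeptides. Of 13 tested genes for these enzymes and their subunits, 1 was higher and 2 were lower, against 13.6% and 11.3% of all tested genes. The median log2 fold change of the 13 was 0.24. The convertase Pcsk6 fell from 42.9 to 76.5 CPM in control to 9.46 to 23.5 CPM in Pea3 TKO (log2 fold change −1.81, adjusted p 0.00525 by edgeR). The sheddase Adam10 fell by 0.59 on the log2 scale (adjusted p 0.0311). The Adam10 call was lost when any 1 of control replicates 2 and 3 or Pea3 TKO replicates 1 and 2 was left out, with adjusted p between 0.0765 and 0.117. Neither Pcsk6 nor Adam10 was called among Y-expressing libraries alone, at log2 fold changes of −2.01 and −0.471. Pcsk5 had a log2 fold change of 0.56 (adjusted p 0.0516).

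Ligands, cargo and partner receptors had 9 of 26 tested genes higher and 1 lower, against 13.6% and 11.3% of all tested genes. The median log2 fold change of the list was 0.26. Grn, the progranulin gene, whose product sortilin takes to lysosomes, was at 210.2, 183 and 144 CPM in control and 347, 294 and 282 CPM in Pea3 TKO. It rose by 0.78 on the log2 scale (adjusted p 0.00614 by edgeR), with no overlap between the groups, as for Sort1. The lysosomal protease gene Ctsh rose by 2.64 (adjusted p 0.00349) and the growth factor gene Pdgfb by 1.99 (adjusted p 0.00442). With Y-expressing libraries alone, the calls of Grn and Ctsh were lost, at log2 fold changes of 0.669 and 2.30. Also called higher were Ntrk3, Cntfr, Gdnf, Insr and Ctsd. The list had 10 calls in all, and 2 among Y-expressing libraries alone.

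Among 11 tested genes of other endocytic and lysosomal sorting receptors, 3 were higher and 1 was lower, against 13.6% and 11.3% of all tested genes. The median log2 fold change of the 11 was −0.02. Lrp2, the multiligand endocytic receptor megalin, was at 5.24, 4.42 and 3.97 CPM in control and 40.2, 40.9 and 29.0 CPM in Pea3 TKO, a rise of 3.01 on the log2 scale (adjusted p 6.2e-05 by edgeR). Lrp10 rose by 0.57 (adjusted p 0.00474) and Lrp1 by 0.67 (adjusted p 0.0193), the call of Lrp1 being lost without control replicate 3 or Pea3 TKO replicate 1 (adjusted p 0.052 and 0.0624). Lrp8, a receptor of reelin, fell from 17.2 to 27.2 CPM in control to 4.19 to 6.75 CPM in Pea3 TKO (log2 fold change −1.89, adjusted p 0.00214). The calls of Lrp8, Lrp10 and Lrp1 were lost among Y-expressing libraries alone, at log2 fold changes of −1.61, 0.571 and 0.466. Lrp1b was at 0 in all libraries.

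**Figure D5:**
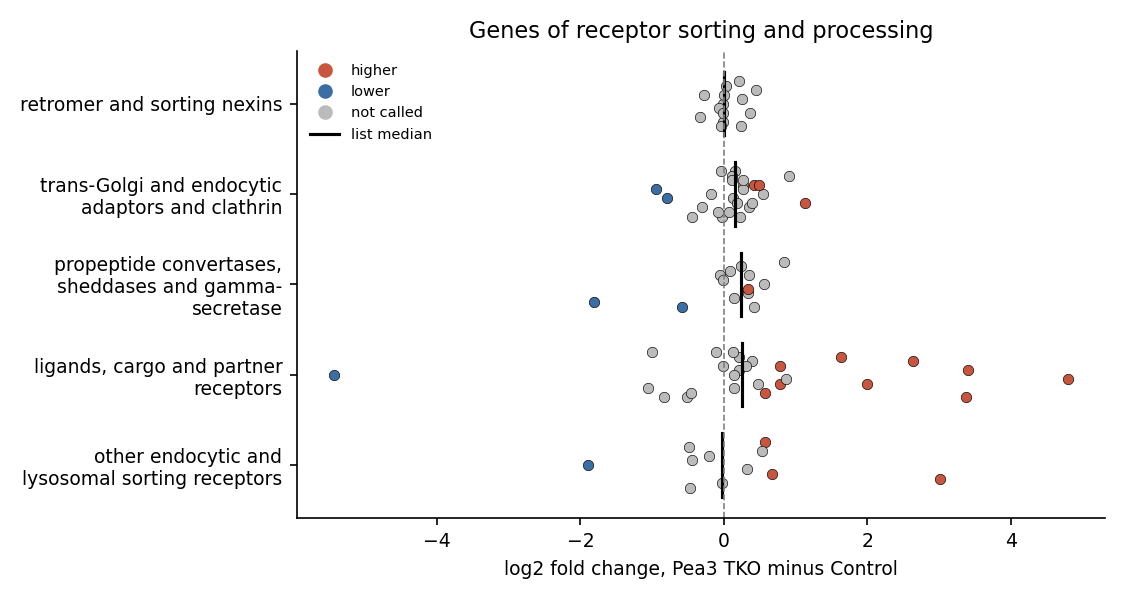
Log2 fold change of Pea3 TKO minus control for the 89 tested genes of 5 lists that surround the receptors, 1 point for each gene, red where called higher, blue where called lower and grey otherwise, with a black line at the median of each list. Retromer genes lie between −0.33 and 0.45 with none called, and the other lists hold genes called in both directions.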

How the data were processed

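RNA was amplified with the Ovation RNA-seq System V2 and sequenced on an Illumina instrument. The authors deposited 1 table per sample with raw read counts per gene symbol, not normalized. The submitters' processing notes name bcl2fastq 2.17, STAR 2.5.2b, featureCounts 1.5.0-p3, DESeq and build mm10. The annotation, the strand setting and the handling of reads with several matches are not given in the sources used here. Without a known strand setting, reads from Sorcs1, Sort1 and Sorl1 cannot be told from those of the antisense genes Gm45352, Gm12523 and Gm16214, which overlap their exons.

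From these counts, genes were filtered with filterByExpr and scaled by TMM, and Pea3 TKO was set against control with the quasi-likelihood functions of edgeR 4.0.16 in R 4.3.3, using all 6 samples and no covariate. P-values were adjusted over the 13087 genes by Benjamini-Hochberg, and a gene was called at an adjusted p under 0.05. The test was tried first on simulated counts. The interval of the Sorcs1 count ratio and the 3-count floors cover counting error only, whereas the intervals of fitted fold changes include the spread between samples. Replicates were not copies of a library, their counts giving a chi-square of at least 16.0 for each degree of freedom. Gene positions and the union of exons per gene are from GENCODE M21 (GRCm38) by symbol, which matched 92.8% of listed symbols. Promoter windows were found for 3 of 5 receptors.

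The receptors and all gene lists were chosen with earlier results of these data known. Named genes were the 5 receptors, the 3 targeted genes, Epcam, Cdh1 and Pax6, sex-linked genes, the 4 genes of smallest p in each list of sorting machinery, the 5 profiles nearest to Sorcs1 (prior count 2) and the 2 nearest listed genes on each side of it. Outside this rule, Col3a1, the marker genes and the other called ligand genes were named after their values were seen. Some genes under the rule are not reported here. Alternatives were DESeq2 1.42.0, other size factors and filters, a replicate block, a Y-linked covariate, the longest transcript as length, and each sample left out in turn. A comparison of Y-expressing samples alone was added after the data were seen.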

Additional observations from a re-analysis of the deposited data

How the results depend on the processing

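Across all genes, 3268 were called, 852 with the Y-linked covariate, 597 among Y-expressing samples alone (chosen after seeing the data, with 1 Pea3 TKO sample assumed to vary like the controls) and 1948 to 3344 with 1 sample left out. Of the 4 relatives of Sorcs1, 0 were called in both Y settings and 0 to 1 with a sample left out. The log2 fold change of Sort1 was 0.61 with the covariate (adjusted p 0.123) and 0.63 among Y-expressing samples, and 0.47 to 0.71 with a sample left out. That of Sorcs2 turned to −0.0494 and −0.0285. The lists gave these counts of calls, with the covariate, among Y-expressing samples and with a sample left out. Adaptors gave 0, 1 and 3 to 6. Convertases, sheddases and gamma-secretase gave 0, 0 and 1 to 3. Ligands gave 3, 2 and 5 to 11. Other receptors gave 1, 1 and 3 to 4. Retromer genes gave 0 to 2 with a sample left out, the 2 being Snx1 and Snx27 without control replicate 1. Of the genes named from the lists, those described here that lost their call in both Y settings were Ap1g2, Ap4m1, Pacs1, Pcsk6, Adam10, Ctsh, Grn, Lrp8, Lrp10 and Lrp1, all with their direction kept, and Gga2 lost it with the covariate (adjusted p 0.0512). With the longest transcript as length, the share of Sorcs2 was 10.4% in control and 15.4% in Pea3 TKO. Why these values moved was not tested. The log2 fold change of Sorcs1 was −8.94 to −8.03 with a sample left out, −8.78 by DESeq2 and −8.13 among Y-expressing samples.

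Replicate numbers are shared between the groups. The deviations of same-numbered samples correlated at only −0.0424 to 0.13 over 3 pairs, and the numbers were not used as pairs. So few pairs cannot settle whether the samples were paired. A replicate block in the fit left 3191 genes called, Sort1 had a log2 fold change of 0.57 (adjusted p 0.0196) and Pcsk5 gained a call. Other size factors shifted the median log2 fold change by at most 0.0307. Counts were few for Sorcs1 in Pea3 TKO, at 0 to 1 a sample, and for Sorcs3, at 10 to 75 a sample.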
